A study of Homo sapiens with 12 samples.

Results

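The SR and hnRNP splicing factor genes were described in A375 cells, a human melanoma cell line, with and without knockdown of the m6A demethylase ALKBH5. The members were all genes of the deposited expression table whose symbol was SRSF followed by a number or began with HNRNP. Pseudogene names, which end in P and a number, and antisense names were left out. This gave 35 genes (11 SRSF and 24 HNRNP) of 29696 in the table, and 33 of them were among the 12985 genes that were tested because their mean over all input libraries reached 0.5 FPKM. HNRNPCL1 and HNRNPCL4 were below this filter, with values from 0 to 0.0547 and from 0 to 0.00879 FPKM in single libraries.

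SR proteins carry RNA recognition motifs and a tail of arginine-serine repeats, which is phosphorylated by SRPK and CLK kinases, and they help the spliceosome to define exons. The hnRNP proteins coat nascent transcripts, often repress exons, and also act in mRNA export, stability and translation. SR proteins concentrate in nuclear speckles, where ALKBH5 is also known to be found. HNRNPC and HNRNPA2B1 are known from earlier work as proteins whose binding depends on m6A, and many SR genes limit their own mRNA through exons that lead to its decay.

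Both groups were A375 cells infected with a lentivirus. The shALKBH5 cells expressed a hairpin against ALKBH5, and the sequenced cells' hairpin is not named in the sources used here. The shCtrl cells, which the labels list as wild type, carried the control construct that the study names Scramble. The study's RNA-Seq methods name a harvest 48 h after infection, and no time is named there for the MeRIP-Seq cells, whose input libraries are used here. Each group had 3 input libraries, which measure expression in fragmented poly(A) RNA, and 3 m6A immunoprecipitation (IP) libraries made with an antibody against m6A (MeRIP-Seq). Nothing in the labels says whether the 3 libraries came from separate cultures, so p-values measure only the spread between libraries, which may be technical.

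Expression is in FPKM, the fragments of a gene relative to its transcript length and to the total of mapped fragments. Read counts were not used here, so the depth is unknown. FPKM summed to between 212760 and 223231 per library. ALKBH5 itself was at 18.2 ± 0.962 FPKM (SD, n = 3) with shCtrl and at 3.48 ± 0.410 FPKM (SD, n = 3) with shALKBH5, with groups that did not overlap. Of 8 melanocyte lineage markers 4 were tested, and 3 were called higher. S100B was at 82.1 FPKM in shALKBH5 and 32.9 FPKM in shCtrl cells, S100A1 at 4.43 and 1.86 FPKM and MITF at 1.26 and 0.777 FPKM, where the groups of MITF overlapped (adjusted p = 0.0475 from limma). SOX10 stood at 181 and 184 FPKM and was not called, and the 4 pigment genes were too low to be tested, with PMEL at 0.611 and 0.237 FPKM (groups not overlapping), TYRP1 at 0.123 and 0.157 FPKM, DCT at 0.0301 and 0.0324 FPKM and TYR at 0.0199 FPKM in shALKBH5 and listed at 0 in shCtrl cells. The markers of fibroblasts (4 genes) summed to between 3.46 and 3.76 FPKM in shALKBH5 and between 7.58 and 8.57 FPKM in shCtrl libraries. PDGFRB made up most of the sum (2.73 and 7.25 FPKM, called lower), COL1A1 was at 0.552 and 0.451 FPKM and was not called, and DCN (0.291 and 0.187 FPKM) and COL1A2 (0.0158 and 0.0499 FPKM) were too low to be tested. The markers of endothelium (3 genes) stayed at or below 0.388 FPKM in every library. Those of keratinocytes (2 genes) summed to between 10.7 and 11.5 FPKM in shALKBH5 and between 8.90 and 9.53 FPKM in shCtrl libraries, with KRT14 called lower (0.369 and 0.961 FPKM) and KRT10 called higher (10.8 and 8.17 FPKM). Of the immune markers, CD14 was at 0.168 and 0.111 FPKM in the means and CD68 at 40.4 and 16.2 FPKM. The part of these differences in the results below was not tested.

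Most splicing factor genes were lower in shALKBH5 cells. Of the 33 members tested, 26 (78.8%) were called lower and 3 (9.09%) higher, where 26.2% of all genes tested were called lower and 34.7% higher. A gene was called when its adjusted p-value from limma, with Benjamini-Hochberg adjustment over all genes tested, was under 0.05. The calls in either direction made up 87.9% of the members and 61.0% of all genes. Without reference to the test, every shALKBH5 library was below every shCtrl library in 28 members (84.8%, against 29.0% of all genes), and the groups did not overlap in either direction in 93.9% of the members (67.0% of all genes). Under median ratio scaling of the libraries, 30.1% of all genes were called lower and 28.7% higher, and 27 members were lower and 2 higher. The median log2 fold change, computed on log2(FPKM + 0.1), was -0.32 over the members and 0.09 over all genes. Members were also higher in level, with a median of 21.9 FPKM against 3.93 FPKM over all genes tested. The shares were not compared with those of genes at a like level.

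The falls were moderate. Among the members called lower they ran from 10.9% to 39.8% of the shCtrl mean. The SRSF genes had 8 lower, 2 higher and 1 not called, with a median log2 fold change of -0.27, and the HNRNP genes had 18 lower, 1 higher and 3 not called, with a median of -0.35. Summed over all members, the level was 1112 to 1151 FPKM in the shALKBH5 libraries and 1352 to 1429 FPKM in the shCtrl libraries. That is 0.500% to 0.516% and 0.617% to 0.672% of all FPKM in a library. In these bulk samples a lower level in fewer cells and a lower level in every cell cannot be told apart, and FPKM per gene does not separate isoforms.

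**Figure D1:**
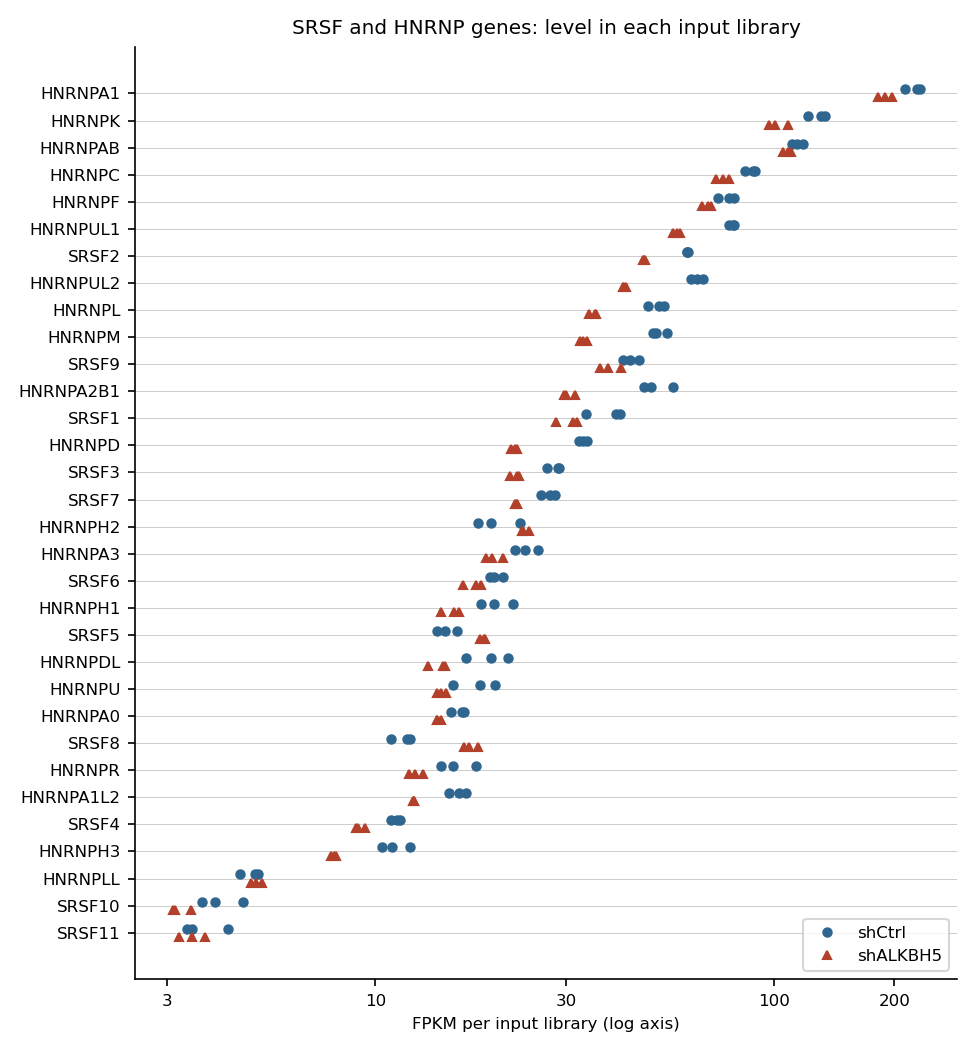
Level of 32 of the 33 tested members in each input library, in FPKM on a log axis, with shCtrl libraries as circles and shALKBH5 libraries as triangles, ordered by the mean over all libraries. HNRNPUL2-BSCL2 is left out because 1 of its values is 0. The triangles lie to the left of the circles in most rows and to the right in SRSF8, SRSF5 and HNRNPH2.

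The HNRNP genes were the larger part of this RNA, at 1096 to 1161 FPKM in the shCtrl libraries, against 256 to 269 FPKM for the SRSF genes. The highest member was HNRNPA1 (ENSG00000135486, chromosome 12, 54280193 to 54287088, plus strand), a general repressor of exon inclusion. It had 189, 198 and 182 FPKM in the shALKBH5 libraries (replicates 1, 2 and 3, in this order throughout) and 212.7, 231 and 228 FPKM in the shCtrl libraries. The groups did not overlap, and the log2 fold change was -0.24 (SE 0.047, adjusted p = 0.00347 from limma). HNRNPA1 has many processed copies in the genome. Of the 53 names left out of the members, 10 reached a mean of 0.5 FPKM, and HNRNPA1P7 reached 27.3 FPKM in 1 library. Copies named after HNRNPC, HNRNPK and HNRNPL were among them, with means of 18.9 (HNRNPCP2), 7.17 (HNRNPKP4) and 6.39 FPKM (HNRNPLP2). Reads shared between HNRNPA1, HNRNPC, HNRNPK or HNRNPL and their copies could move the values of these members, which was not tested.

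HNRNPK, a protein with KH domains that binds C-rich RNA, followed at 129 ± 6.53 FPKM (SD, n = 3) with shCtrl and 102 ± 5.80 FPKM (SD, n = 3) with shALKBH5. Its single libraries were at 100, 108 and 96.9 FPKM and at 122, 131 and 134 FPKM, without overlap (log2 fold change -0.34, adjusted p = 0.00134 from limma). HNRNPAB was the next in level, at 105, 108 and 110 FPKM in shALKBH5 and 118, 111 and 114 FPKM in shCtrl libraries. The HNRNPAB groups only just did not overlap, and the difference was not called (log2 fold change -0.08, SE 0.039, adjusted p = 0.104). HNRNPC, which binds uridine tracts, came after it, with 74.5, 77.1 and 71.5 FPKM against 84.4, 89.4 and 88.6 FPKM. It was 15.0% lower (log2 fold change -0.23, SE 0.043, adjusted p = 0.00236 from limma). In shCtrl cells HNRNPA1, HNRNPK, HNRNPAB and HNRNPC did not overlap with each other in level, and HNRNPF (76.0 FPKM) and HNRNPUL1 (78.3 FPKM) overlapped.

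The largest fall among the members called was that of HNRNPA2B1 (ENSG00000122566, chromosome 7, 26173057 to 26201529, minus strand), which binds and sorts mRNAs and has been linked to m6A in primary microRNAs. Its values were 31.6, 30.0 and 29.7 FPKM with shALKBH5 and 47.1, 55.8 and 49.0 FPKM with shCtrl. The highest shALKBH5 library was well below the lowest shCtrl library, and the means were 30.4 ± 1.01 and 50.6 ± 4.56 FPKM (SD, n = 3). The log2 fold change was -0.73 (SE 0.067, adjusted p = 7.07e-05 from limma). HNRNPM (chromosome 19, 8444767 to 8489114, plus strand), a regulator of splicing that binds GU-rich sites, fell from 51.3 ± 2.27 to 33.2 ± 0.665 FPKM (SD, n = 3). Its libraries were at 33.8, 33.1 and 32.5 FPKM against 49.6, 53.8 and 50.3 FPKM, with no overlap (log2 fold change -0.63, SE 0.044, adjusted p = 1.99e-05).

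The U-like members HNRNPUL1 and HNRNPUL2, which are known in RNA metabolism and in the response to DNA breaks, fell as well. HNRNPUL2 (chromosome 11, 62712630 to 62727457, minus strand) was at 41.7, 42.4 and 41.9 FPKM in shALKBH5 and at 64.1, 66.1 and 61.6 FPKM in shCtrl libraries (log2 fold change -0.60, SE 0.039, adjusted p = 1.30e-05 from limma). HNRNPUL1 (chromosome 19, 41262496 to 41307787, plus strand) was at 58.1, 56.9 and 55.7 FPKM and at 79.2, 78.8 and 76.9 FPKM (log2 fold change -0.46, SE 0.035, adjusted p = 2.94e-05). Neither gene's groups overlapped, and HNRNPU, the scaffold protein they are named after, was 18.6% lower (log2 fold change -0.29, adjusted p = 0.0217).

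The readthrough gene HNRNPUL2-BSCL2 (chromosome 11, 62690275 to 62727384), whose span overlaps that of HNRNPUL2, was at 6.03, 0 and 1.76 FPKM in shALKBH5 and at 8.25, 7.31 and 14.1 FPKM in shCtrl libraries. It had the lowest fitted log2 fold change of the members, -3.20, but with an SE of 1.33 it was not called (adjusted p = 0.0707 from limma). Leaving out shALKBH5 replicate 1 or 2, a pseudocount of 1 and the replicate number as a block (adjusted p = 0.0349) each brought it past the threshold, and the fitted value ran from -4.47 to -1.50 over the alternative settings. Reads can be shared between it and HNRNPUL2, so its level is uncertain.

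HNRNPD, also known as AUF1, which binds AU-rich elements and promotes mRNA decay, and its relative HNRNPDL lie near each other on chromosome 4, at 82352498 to 82374503 and 82422564 to 82430408 on the minus strand. HNRNPD was at 22.3, 22.6 and 21.9 FPKM in shALKBH5 and at 32.4, 34.0 and 33.2 FPKM in shCtrl libraries (log2 fold change -0.57, SE 0.038, adjusted p = 1.61e-05 from limma). HNRNPDL was at 14.9, 13.5 and 14.7 FPKM and at 16.8, 21.4 and 19.5 FPKM (log2 fold change -0.41, SE 0.090, adjusted p = 0.00549). The 3 libraries of a group were close for HNRNPD and more spread for HNRNPDL in shCtrl cells.

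HNRNPL (chromosome 19, 38836388 to 38852347, minus strand), which binds CA repeats, was at 34.4, 35.5 and 35.7 FPKM in shALKBH5 and at 52.8, 48.1 and 51.4 FPKM in shCtrl libraries (log2 fold change -0.53, SE 0.046, adjusted p = 5.64e-05 from limma). Its paralog HNRNPLL, known for the splicing of CD45 in lymphocytes, was low at 4.87, 5.19 and 5.01 FPKM against 4.58, 4.99 and 5.07 FPKM. The HNRNPLL groups overlapped and the difference was not called (log2 fold change 0.04, SE 0.064, adjusted p = 0.600).

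The members that bind G runs moved in both directions. HNRNPH3 (chromosome 10, 68331174 to 68343191, plus strand) had 7.94, 7.75 and 7.86 FPKM in shALKBH5 and 10.4, 12.2 and 11.02 FPKM in shCtrl libraries (log2 fold change -0.51, SE 0.066, adjusted p = 0.000425 from limma). HNRNPH1 was 22.8% lower (log2 fold change -0.37, adjusted p = 0.00433) and HNRNPF 10.9% lower (log2 fold change -0.17, adjusted p = 0.0142). HNRNPH2 (chromosome X, 101408222 to 101414133, plus strand) was higher instead, with 24.3, 23.3 and 23.5 FPKM in shALKBH5 and 18.1, 23.1 and 19.5 FPKM in shCtrl libraries. Replicate 2 of shCtrl came close to the shALKBH5 libraries, and the call of HNRNPH2 was near the threshold (log2 fold change 0.23, SE 0.086, adjusted p = 0.0466 from limma). It was lost in 9 of 13 alternative settings, among them leaving out shALKBH5 replicate 1, 2 or 3 (adjusted p = 0.119, 0.0852 and 0.0931) and shCtrl replicate 1 or 3 (adjusted p = 0.112 and 0.124).

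The remaining hnRNP members called lower were HNRNPA1L2, HNRNPR, HNRNPA3 and HNRNPA0, with log2 fold changes of -0.37, -0.34, -0.26 and -0.17. HNRNPA1L2 is an intron-poor relative of HNRNPA1, and its reads may be hard to assign between them. HNRNPR is a close relative of SYNCRIP, and HNRNPA0 is known to bind AU-rich elements. The calls of HNRNPA0, HNRNPF and HNRNPU were lost in some settings. Leaving out shALKBH5 replicate 1 or 2 or shCtrl replicate 3 (HNRNPA0), shALKBH5 replicate 3 or shCtrl replicate 3 (HNRNPF), or shALKBH5 replicate 2 or 3 or shCtrl replicate 3 (HNRNPU) raised the adjusted p above 0.05, up to 0.0568, 0.0552 and 0.0658 over all settings. That of HNRNPU was also lost with every library kept when no filter on low values was applied.

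**Figure D2:**
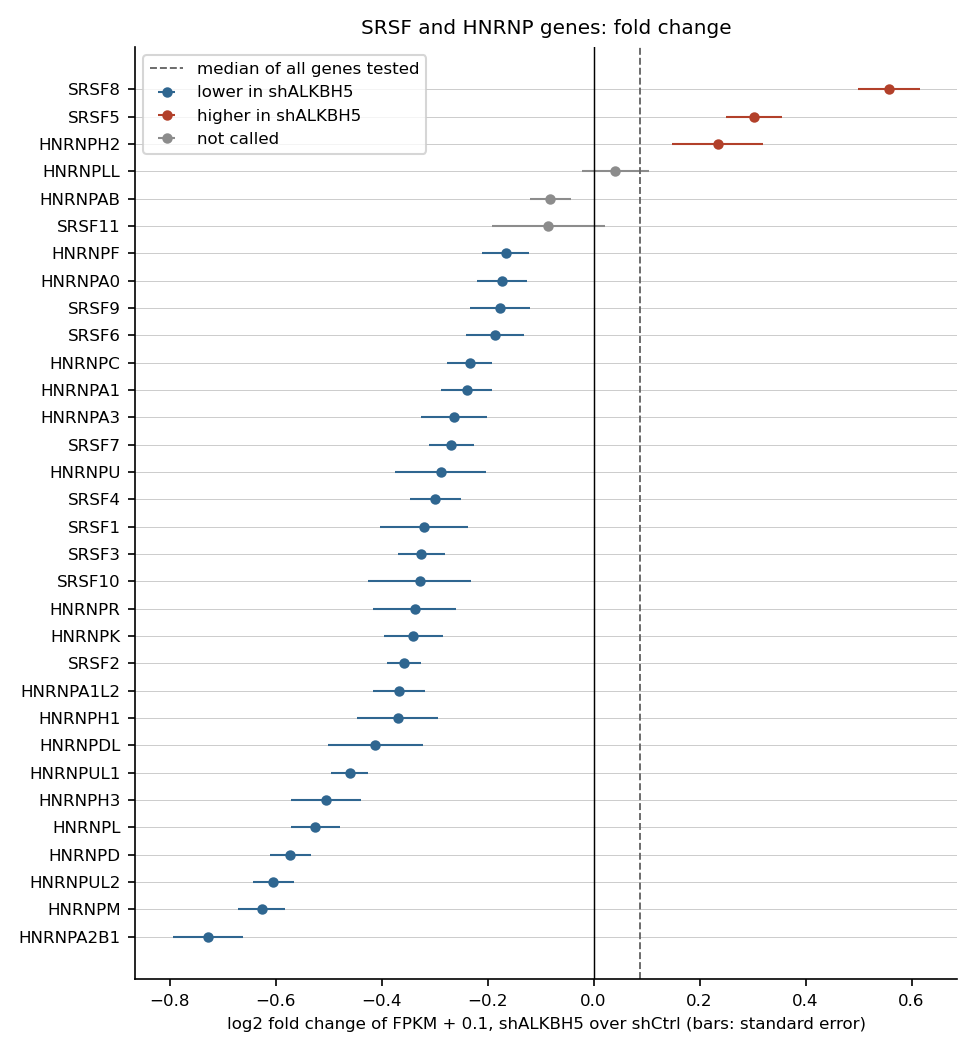
Log2 fold change of FPKM + 0.1 between shALKBH5 and shCtrl cells for 32 of the 33 tested members, with the standard error from limma as bars. Members called lower, called higher and not called have their own colors, and the dashed line marks the median of all genes tested, at 0.09. HNRNPUL2-BSCL2, at -3.20 with an SE of 1.33, is left out, and the members called run from -0.73 for HNRNPA2B1 to 0.56 for SRSF8.

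Among the SR genes, SRSF2 (ENSG00000161547, chromosome 17, 76734115 to 76737333, minus strand), the protein long used to mark nuclear speckles, fell with the least spread. It was at 47.4, 47.2 and 46.7 FPKM in shALKBH5 and at 60.6, 60.3 and 60.3 FPKM in shCtrl libraries (log2 fold change -0.36, SE 0.032, adjusted p = 6.20e-05 from limma). The difference of the means, 47.1 ± 0.357 and 60.4 ± 0.142 FPKM (SD, n = 3), far exceeded the spread within a group. SRSF1 (chromosome 17, 58000919 to 58007346, minus strand), the founding SR protein, was at 31.3, 31.9 and 28.4 FPKM against 33.8, 40.9 and 40.0 FPKM (log2 fold change -0.32, SE 0.083, adjusted p = 0.0118). For SRSF1 shCtrl replicate 1 lay nearer to the shALKBH5 libraries than to the other shCtrl libraries, though the groups did not overlap.

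SRSF3 and SRSF7, each with a single RNA recognition motif, link splicing to mRNA export. SRSF3 (chromosome 6, 36594353 to 36605600, plus strand) was at 22.6, 22.9 and 21.7 FPKM in shALKBH5 and at 27.0, 28.6 and 28.8 FPKM in shCtrl libraries (log2 fold change -0.32, SE 0.045, adjusted p = 0.000569 from limma). SRSF7 was 17.1% lower (log2 fold change -0.27, adjusted p = 0.00126). SRSF10 (chromosome 1, 23964347 to 23980927, minus strand), a splicing repressor when dephosphorylated, is, like SRSF3, a known partner of the nuclear m6A reader YTHDC1. It was low, at 3.45, 3.14 and 3.10 FPKM in shALKBH5 and 3.67, 4.65 and 3.97 FPKM in shCtrl libraries (log2 fold change -0.33, SE 0.098, adjusted p = 0.0218). Its call was lost without shALKBH5 replicate 2 or 3 (adjusted p = 0.0654 and 0.0697) and without the filter on low values (adjusted p = 0.0557). SRSF11, at a like level of 3.47 ± 0.258 and 3.70 ± 0.503 FPKM (SD, n = 3), overlapped between the groups and was not called (adjusted p = 0.520).

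SRSF4, SRSF5 and SRSF6 are paralogs with a pair of RNA recognition motifs each. SRSF4 was 18.9% lower (log2 fold change -0.30, adjusted p = 0.00121 from limma) and SRSF6 was 12.1% lower (log2 fold change -0.19, adjusted p = 0.0217). SRSF5 (chromosome 14, 69726900 to 69772005, plus strand) was higher, at 18.7, 18.8 and 18.3 FPKM in shALKBH5 and at 14.3, 16.0 and 14.9 FPKM in shCtrl libraries. Its groups did not overlap, and the log2 fold change was 0.30 (SE 0.053, adjusted p = 0.00187). SRSF9, a relative of SRSF1, was 11.5% lower (log2 fold change -0.18, adjusted p = 0.0296). The call of SRSF6 was lost without shALKBH5 replicate 3 and without shCtrl replicate 2 or 3, and that of SRSF9 without shALKBH5 replicate 1 or 2, without shCtrl replicate 1 or 3, without the filter on low values and without the mean-variance trend, with adjusted p-values up to 0.0729 and 0.101 over all settings.

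SRSF8 (ENSG00000263465, chromosome 11, 95067197 to 95071224, plus strand), which arose as a retrotransposed copy of SRSF2, rose most of the members. It had 16.7, 18.0 and 17.2 FPKM with shALKBH5 and 10.9, 12.2 and 12.0 FPKM with shCtrl. All shALKBH5 libraries were above all shCtrl libraries, and the means were 17.3 ± 0.684 and 11.7 ± 0.687 FPKM (SD, n = 3). The log2 fold change was 0.56 (SE 0.058, adjusted p = 0.000140 from limma). SRSF8 and SRSF2 share sequence, so reads could be split between them. They moved in opposite directions.

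Ratios between related members were compared within each library, where the scaling of the library cancels. The 11 pairs were chosen with the values known, so the ratios are a description without a test. The ratio of SRSF8 to SRSF2 was 0.352, 0.382 and 0.368 in the shALKBH5 libraries and 0.181, 0.203 and 0.199 in the shCtrl libraries, 1.89 times as high. That of SRSF5 to SRSF4 was 2.04 ± 0.0363 and 1.34 ± 0.0440 (SD, n = 3), 1.52 times as high, and that of HNRNPH2 to HNRNPH1 was 1.53 ± 0.0719 and 1.00 ± 0.0330 (SD, n = 3), also 1.52 times as high. The libraries of the groups did not overlap in this ratio, although HNRNPH2 alone was near the threshold of the test.

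The ratio of HNRNPLL to HNRNPL was 1.48 times as high, where HNRNPL was called lower and HNRNPLL was not called. Of the pairs that went the other way, HNRNPA2B1 to HNRNPA1 was at 0.167, 0.152 and 0.163 in shALKBH5 and at 0.221, 0.241 and 0.215 in shCtrl libraries, 0.712 times as high. The ratio of SRSF3 to SRSF7 moved little, from 1.04 to 0.996. The groups overlapped in SRSF1 to SRSF9 and in HNRNPDL to HNRNPD, and not in the other pairs. Of all single genes tested, 67.0% had groups that did not overlap, and no share over other pairs of genes was computed.

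**Figure D3:**
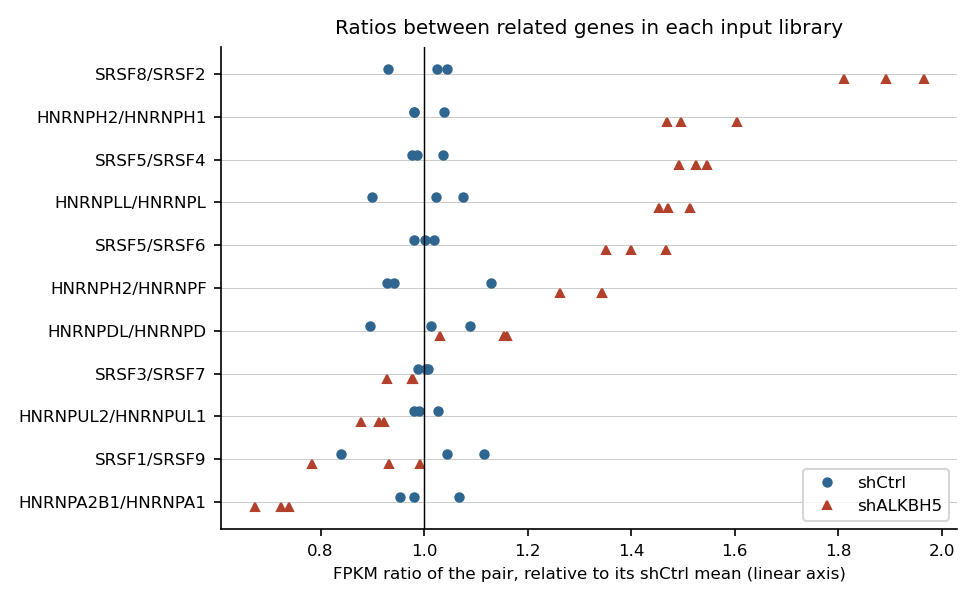
FPKM ratio of 11 pairs of related members in each input library, divided by the mean ratio of the pair in shCtrl libraries (linear axis, 1 marks the shCtrl mean). Circles are shCtrl and triangles shALKBH5 libraries. SRSF8 to SRSF2 stands farthest to the right, and HNRNPA2B1 to HNRNPA1 farthest to the left.

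Lists of related genes were read against the shares of all genes tested, 26.2% called lower and 34.7% higher, and no difference between lists was tested. Of 8 tested genes that encode hnRNP proteins under other symbols, 6 (75%) were called lower and 0 higher, with a median log2 fold change of -0.40. RALY, a close relative of HNRNPC, fell from 10.7 to 6.47 FPKM (log2 fold change -0.72, adjusted p = 1.15e-05 from limma), and RBMX, also known as hnRNP G, from 30.8 to 20.4 FPKM (log2 fold change -0.59, adjusted p = 0.000725). SYNCRIP and PTBP3 were not called.

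Of 13 tested SR-like proteins, SR kinases and the SR importer, 4 were called lower and 1 higher. The lower share, 30.8%, was near that of all genes, and the higher share was 7.69%. The kinase CLK2 fell from 10.1 to 6.72 FPKM (log2 fold change -0.58, adjusted p = 0.000137 from limma) and the splicing coactivator SRRM1 from 13.8 to 9.30 FPKM (log2 fold change -0.57, adjusted p = 0.000232). SRRM2, a scaffold of nuclear speckles, rose from 31.1 to 36.8 FPKM (log2 fold change 0.24, adjusted p = 0.00155). SRPK1, SRPK2 and the importer TNPO3 were not called.

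Of 29 core spliceosome genes, 12 (41.4%) were called lower and 3 (10.3%) higher, with a median log2 fold change of -0.09. PRPF8, the large protein at the center of the spliceosome, fell from 85.6 to 64.0 FPKM (log2 fold change -0.42, adjusted p = 0.000270 from limma) and the Sm protein SNRPE from 22.9 to 15.3 FPKM (log2 fold change -0.57, adjusted p = 0.000421). PRPF4 rose from 22.7 to 36.1 FPKM (log2 fold change 0.67, adjusted p = 1.92e-05) and the Sm protein SNRPD3 from 31.4 to 38.6 FPKM (log2 fold change 0.30, adjusted p = 0.000659). Sm proteins were thus among both the higher and the lower genes.

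A further list held splicing regulators, only some of them known for tissue-specific programs. Of its 10 tested genes, 2 (20%) were called lower and 3 (30%) higher, both near the shares of all genes. CELF1 rose from 14.2 to 22.4 FPKM (log2 fold change 0.66, adjusted p = 3.22e-05 from limma) and KHDRBS3 from 0.959 to 1.66 FPKM (log2 fold change 0.73, adjusted p = 0.000987). KHDRBS1, also known as SAM68, fell from 52.5 to 39.1 FPKM (log2 fold change -0.42, adjusted p = 0.000997), and ELAVL1 from 24.7 to 22.4 FPKM (log2 fold change -0.14, adjusted p = 0.0349).

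**Figure D4:**
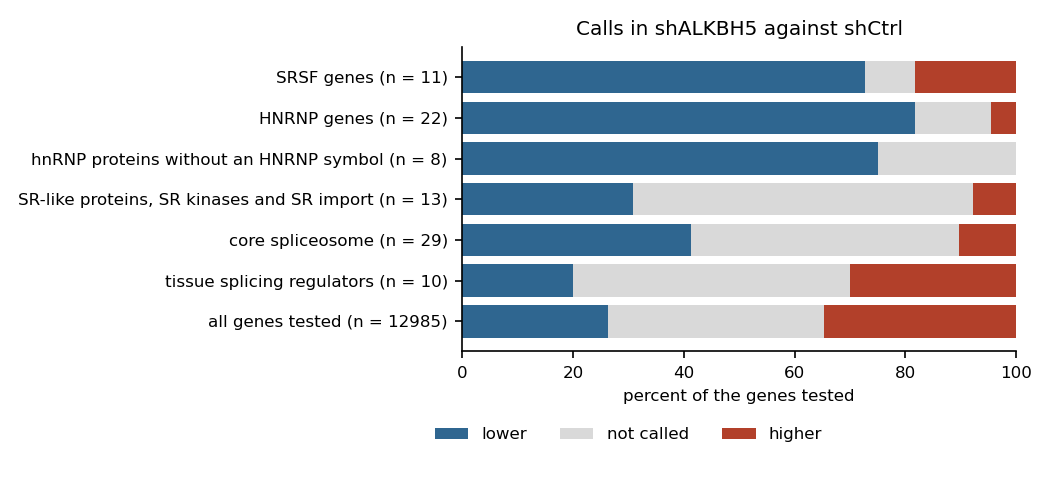
Percent of the tested genes called lower, not called and called higher in shALKBH5 against shCtrl cells, for the SRSF and HNRNP genes, the lists of related genes and all genes tested (n in brackets). The lower share is 72.7% for SRSF and 81.8% for HNRNP genes and 26.2% for all genes.

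The stretch before the start of transcription was examined because most members moved the same way. RefSeq windows of 250 bases before a start (build GRCh38.p14) were found for 31 of the 33 tested members, with 45 windows in all. HNRNPA1 and SRSF2 had no entry. The median GC content was 64.8% in the members' windows and 58.0% over all 35116 windows. All windows are not limited to genes tested for expression, and a member with several starts counts more than once. A link between the windows and the falls in expression was not tested. In 11 members 12 windows lay outside the span and the peaks of their gene. Of these, 3 are shown as examples chosen with the values known, those of HNRNPUL2 and HNRNPL, which fell, and of SRSF8, which rose. They are given 5′ to 3′ on the strand of the gene, and capitals mark a match to a motif searched on both strands. The windows lie at chr11:62727458-62727707 (minus strand), chr19:38852348-38852597 (minus strand) and chr11:95066669-95066918 (plus strand).
HNRNPUL2: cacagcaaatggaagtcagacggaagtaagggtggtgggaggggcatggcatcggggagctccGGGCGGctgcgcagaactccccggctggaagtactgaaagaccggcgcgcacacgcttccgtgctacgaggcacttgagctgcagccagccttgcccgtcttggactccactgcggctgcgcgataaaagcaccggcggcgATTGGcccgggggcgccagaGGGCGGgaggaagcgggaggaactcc
HNRNPL: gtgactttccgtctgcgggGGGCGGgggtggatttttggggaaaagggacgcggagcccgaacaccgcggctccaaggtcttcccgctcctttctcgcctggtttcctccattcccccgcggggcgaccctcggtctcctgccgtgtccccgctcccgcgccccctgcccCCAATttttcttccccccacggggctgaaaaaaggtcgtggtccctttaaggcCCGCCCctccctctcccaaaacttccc
SRSF8: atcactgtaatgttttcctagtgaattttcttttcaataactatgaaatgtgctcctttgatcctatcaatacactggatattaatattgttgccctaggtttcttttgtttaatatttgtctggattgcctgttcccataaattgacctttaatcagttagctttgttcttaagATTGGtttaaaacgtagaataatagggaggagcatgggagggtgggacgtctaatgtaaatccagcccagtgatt

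HNRNPUL2 and HNRNPL each held GC boxes (GGGCGG) and a CCAAT box (CCAAT), and SRSF8 held a CCAAT box in an AT-rich window with 35.2% GC. Over all members, 60.0% of the windows held a GC box and 48.9% a CCAAT box, against 42.6% and 32.0% of all windows. An E-box (CACGTG) was in 15.6% against 6.34%, a TATA box (TATAAA) in 13.3% against 10.7%, an ETS core (CCGGAAG) in 11.1% against 8.52%, an NRF1 core (GCGCATGC) in 6.67% against 2.63%, and a cAMP response element (TGACGTCA) in 0 of 45 against 1.65%. No matches to different motifs overlapped in the windows shown. Since all windows are not limited to genes tested for expression, these shares do not come from like sets. Windows of 1 gene can overlap each other, and a match is a description of letters, not of a bound site.

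Nearly all members carried m6A peaks, as most expressed genes did. The authors' peak caller gave 1 list per group, in which each peak has a fold enrichment (IP signal divided by input signal) but no value for single libraries. The peaks therefore could not be compared between replicates. In shCtrl cells 29 of 33 tested members (87.9%, 95% Wilson interval 72.7 to 95.2%) held at least 1 peak, against 85.5% of all genes tested. In shALKBH5 cells 30 of 33 did (90.9%, 76.4 to 96.9%), against 86.0%. The members held 115 peaks in shCtrl and 110 peaks in shALKBH5 cells, with a median of 3 per member with a peak in both lists, against 2 over all tested genes with a peak. These counts include 7 shCtrl and 5 shALKBH5 member peaks with a listed FDR over 0.05. Intervals cover counting error only.

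No peak of either list was assigned to SRSF3, SRSF7 or the uncalled HNRNPUL2-BSCL2. Some peaks assigned to HNRNPUL2 lie within the span of HNRNPUL2-BSCL2, so they could belong to either gene. SRSF2 had a single 3′UTR peak of 61 bp with a fold enrichment of 1.50 in shALKBH5 cells and none in shCtrl cells. SRSF2, SRSF3 and SRSF7 were called lower in expression. Of the 26 members called lower, 23 held a shCtrl peak and 24 a shALKBH5 peak, and the 3 members called higher held peaks in both lists. HNRNPU had the most peaks, 11 in each list. It was followed in shCtrl cells by HNRNPA1, HNRNPA2B1 and HNRNPH1 with 7 peaks each, which had 5, 6 and 6 peaks in shALKBH5 cells. HNRNPK, at 129 FPKM in shCtrl cells, had 1 peak per list, in its 3′UTR, with fold enrichments of 3.83 and 3.73.

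In the regions that the peak lists name, the 3′UTR held 51.3% (42.3 to 60.2%) of the member peaks in shCtrl and 55.5% (46.1 to 64.4%) in shALKBH5 cells. The shares over all genes tested were 52.8% and 53.0%. The 5′UTR held 33.0% (25.1 to 42.1%) and 27.3% (19.8 to 36.3%) of the member peaks, against 20.3% and 20.1% over all genes tested. Other exons held 8.70% and 10.9%, against 13.1% and 13.2% over all genes tested. Introns held 6.96% and 6.36%, against 5.79% and 5.91%, and noncoding exons 0% in both lists, against 7.63% and 7.48%. Peak spans include introns, and 26 shCtrl and 25 shALKBH5 member peaks spanned over 2000 bp. For HNRNPUL2, SRSF8 and some other members a list holds peaks that overlap each other, which are not independent.

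The member peaks were moderate in height, with a median fold enrichment of 2.67 in shCtrl and 2.85 in shALKBH5 cells, against 4.33 and 4.29 over all genes tested. A few were far higher. The highest was a 5′UTR peak of HNRNPL on chromosome 19, with a fold enrichment of 64.6 in shCtrl cells (38846075 to 38850054, 3980 bp) and of 43.8 in shALKBH5 cells (38847330 to 38850054, 2725 bp). The 5′UTR peak of HNRNPUL2 on chromosome 11, 62724326 to 62727384 in both lists, had 36.7 and 31.5. The 5′UTR peak of HNRNPD on chromosome 4, 82358637 to 82374503 in the shCtrl list, had 32.4 and 38.2. All of these genes fell in expression, while the enrichment was lower in the shALKBH5 list for HNRNPL and HNRNPUL2 and higher for HNRNPD.

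Among the 3′UTR peaks of shCtrl cells the highest were those of HNRNPA0 on chromosome 5 (137752597 to 137754183 in shCtrl cells, 23.2 and 20.1) and HNRNPUL2 (22.1 and 19.2). The 3′UTR peak of SRSF5 on chromosome 14 (69770443 to 69771885 in shCtrl cells) had 18.4 and 16.3, and the farther of the SRSF8 peaks on chromosome 11 (95069673 to 95071105 in shCtrl cells) had 7.18 and 6.88. These members moved in both directions in expression, while each of these peaks was slightly lower in the shALKBH5 list.

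Most member peaks were found in both lists. Of the 115 shCtrl member peaks, 99 (86.1%, 78.6 to 91.3%) overlapped a shALKBH5 peak of the same gene and strand by at least 1 bp, against 83.4% of the shCtrl peaks of all genes tested. From the other side, 101 of the 110 shALKBH5 member peaks (91.8%) overlapped a shCtrl peak. When both peaks had to cover 50% of each other, 73.0% of the shCtrl member peaks were shared, against 60.8% over all genes tested.

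The fold enrichment at shared peaks moved little on the whole. The median log2 ratio of shALKBH5 to shCtrl enrichment was -0.02 over the members' shared peaks, with quartiles of -0.18 and 0.22, and -0.02 over all genes tested, with quartiles of -0.31 and 0.34. The ratio was above 0 in 47, below 0 in 51 and at 0 in 1 of the 99 shared peaks. It was beyond 2-fold in 10 of them (10.1%), against 16.3% over all genes tested. With 1 list per group these ratios have no error and were not tested. A ratio of IP to input also need not show a change in the total of m6A. By mass spectrometry (LC-MS), the study reported more total m6A in shALKBH5 than in control A375 cells.

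Of these 10 peaks, 8 did not reach a reciprocal overlap of 50%, and in 7 of the 8 higher ones the shALKBH5 peak overlapped several shCtrl peaks. The largest rise was of this kind. A 3′UTR peak of HNRNPA3 on chromosome 2 (177212742 to 177219658, fold enrichment 14.7) in shALKBH5 cells overlapped a shCtrl peak called in the 5′UTR (177212742 to 177215648, 1.55) as well as one called in the 3′UTR (177215826 to 177219777, 14.9). HNRNPU had 3 of the higher ratios, at shCtrl peaks of 2.03, 2.66 and 3.01 that a single shALKBH5 peak of 8.57 overlapped.

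At a reciprocal overlap of at least 50%, 1 member peak was more than 2-fold higher and 1 more than 2-fold lower. The higher was a 3′UTR peak of HNRNPA1L2 on chromosome 13 (52642902 to 52643766 in shCtrl and 52642455 to 52643796 in shALKBH5 cells), with fold enrichments of 8.18 and 19.6. The same shALKBH5 peak also overlapped a shCtrl peak of 5.11. The lower was a peak of HNRNPAB on chromosome 5 (178204533 to 178210197 in shCtrl and 178206878 to 178210197 in shALKBH5 cells), with 5.03 and 1.50, which was also the largest fall among all shared member peaks. The shALKBH5 list held a further HNRNPAB peak in the 5′UTR with 5.32 over 1208 bp, and the longer shCtrl peak spans both. HNRNPA2B1, the member with the largest called fall in expression, had 8.07 and 7.79 at its highest peak, in the 3′UTR (26191859 to 26196964 in both lists).

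**Figure D5:**
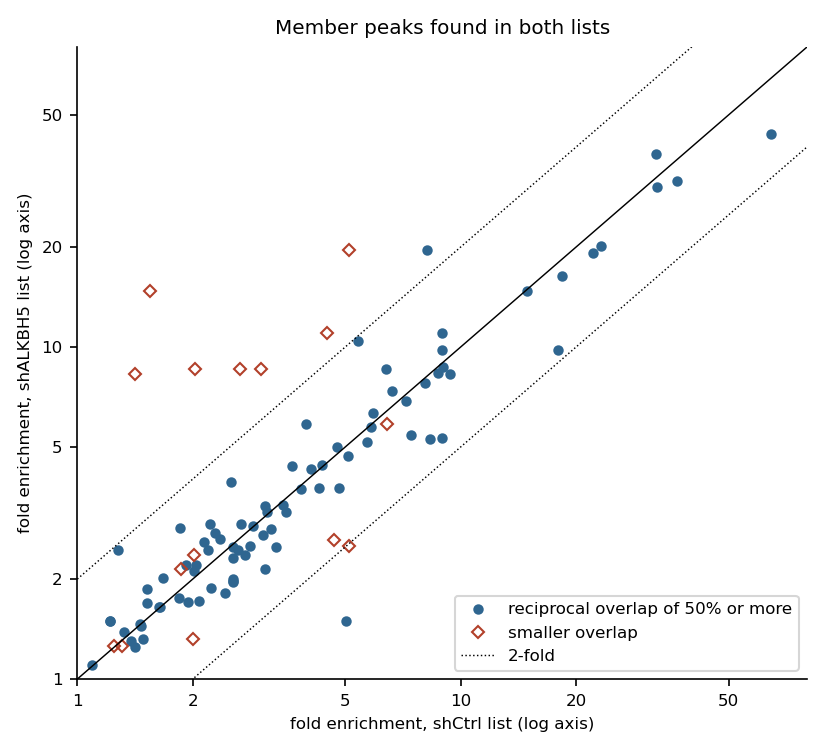
Fold enrichment of IP over input at the 99 member peaks of the shCtrl list that overlap a shALKBH5 peak, shCtrl on the x axis and shALKBH5 on the y axis, both on log axes. Filled circles have a reciprocal overlap of at least 50% and open diamonds a smaller one, the solid line marks equality and the dotted lines 2-fold. Most points follow the solid line, and most points beyond 2-fold are diamonds.

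A further deposited table that compares the peaks of the groups listed 17 peaks in 13 of the tested members (39.4%), against 32.7% of all genes tested. Of these 17 peaks, 9 lay in the 3′UTR. HNRNPA1L2, HNRNPH3, HNRNPUL1 and SRSF8 each had a pair of peaks in the table. The listed peaks of HNRNPA1L2 (52600191 to 52642542) and HNRNPH2 (101391786 to 101412297) began before the span that the expression table gives these genes. Only positions were taken from this table.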

How the data were processed

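Input expression of 3 shALKBH5 and 3 shCtrl libraries was deposited by the authors as FPKM. The aligner, the counter and the pooling of IP replicates are not given in the sources used here. The authors used edgeR, but no counts were used here, so limma replaced it. The labels list build mm10, yet the gene identifiers are human, and the spans of 35 of 35 members overlapped those of RefSeq GRCh38.p14, as did 99.9% of 21699 genes matched by symbol. Peaks were deposited as 1 list for each group. Per the file headers the lists hold peak positions, a ratio of IP over input (fold enrichment), and a log10 p-value and FDR, treated here as a score. Fold changes, p-values and FDR columns of the authors' own comparisons of expression and of peaks were not used.

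Values were tested with lmFit and eBayes with a trend in limma 3.58.1 (R 4.3.3) on log2(FPKM + 0.1). The test was two-sided, with Benjamini-Hochberg adjustment over the 12985 genes whose mean reached 0.5 FPKM. This is a scale that understates changes of low genes. The code of the test was run on simulated data with fewer changed genes, and larger changes, than most seen here. That run checks the code and not the calls. At most 0.123% of the values of tested genes were identical in any pair of libraries, and each counted as 1 replicate. Log2 values of libraries correlated across genes at 0.981 to 0.984 within and 0.929 to 0.934 between groups. Python 3.11.15, pandas 2.3.3, scipy 1.17.1 and matplotlib 3.10.9 did the rest. Peaks overlapped when they shared at least 1 bp on a strand in the same gene. Alternatives were pseudocounts of 1 and 0.01, no filter or one at 1 FPKM, median ratio scaling, the replicate number as a block, no trend, leaving out each library, stricter peaks (fold enrichment of at least 2 and FDR of at most 0.01) and a reciprocal overlap of 50%.

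The members and all lists were chosen with earlier results of these data known. The text gives library values for the 8 members called higher and lower with the largest change and no overlap (3 were called higher), the 3 highest in level, and SRSF1, SRSF2, SRSF3, SRSF10, HNRNPC, HNRNPA2B1, HNRNPA1 and HNRNPK. It names the members with the most peaks and the largest changes of enrichment, and of each list of related genes the 2 called higher and the 2 called lower with the largest change. Other members, the ratios between related members, the readthrough gene and HNRNPLL were added after their values were seen. Depth is unknown, and 3 libraries per group limit the precision. IP library values and sequences under the peaks were not analysed here.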

Additional observations from a re-analysis of the deposited data

How the results depend on the processing

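The members' median log2 fold change was -0.32. It was -0.40 after median ratio scaling and ran from -0.36 to -0.26 when each library was left out in turn, the latter without shCtrl replicate 2. The cause was not tested. The number of members called lower was 26 and ran from 21 to 27 over 13 alternative settings (21 to 26 with a library left out), and that of members called higher was 3 and ran from 2 to 3. Over all genes, 7917 were called, and 6871 to 7832 with a library left out. No called member changed direction in any setting. Of the 26 members called lower, 20 kept the call in every setting, and HNRNPA0, HNRNPF, HNRNPU, SRSF6, SRSF9 and SRSF10 did not. HNRNPAB was called lower after median ratio scaling (adjusted p = 0.0475 from limma) and without shCtrl replicate 2 (adjusted p = 0.0466), and from 0.0466 to 0.308 over the settings. The log2 fold change of ALKBH5 ran from -2.45 to -2.29 with a library left out.

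Whether the replicate numbers pair the samples is not known. Deviations of same-numbered libraries correlated at 0.018, -0.046 and 0.059, and those of other-numbered libraries at -0.062 to 0.044. With 3 libraries per group these values cannot settle the question. With the replicate block 27 members were called lower, HNRNPUL2-BSCL2 in addition to the 26, and 2 higher, and 7271 genes in all. HNRNPH2 had an adjusted p = 0.0591 under the block (limma). Of the shCtrl member peaks, 86.1% were shared, and 73.0% at a reciprocal overlap of 50%, where fewer peaks qualify by construction. Stricter peaks gave 84.5%. Without counts, depth sets no stated limit on low members such as HNRNPCL1.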
